A study of Mus musculus with 8 samples.

Results

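The response of chromatin accessibility to oxygen shortage was described in BV2 cells grown alone, from the ATAC-seq peak lists of 2 hypoxic and 2 normoxic libraries out of the 8 libraries of the series. Overlapping peaks of these 4 lists on chromosomes 1 to 19 and X were merged into 31279 regions, of the 40770 that all 8 lists give. A region was called gained when both hypoxic lists and neither normoxic list held a peak in it (1 bp of overlap), lost in the reverse case, and shared when all 4 lists held one. There were 7265 gained regions (23.2% of all regions), 83 lost regions (0.265%) and 7018 shared regions. Of protein-coding genes with any region within 10 kb, 37.0% had a gained one, against 41.0% of such genes on the pathway lists used here. Start sites of the hypoxia genes Pdk1, Egln3, Vegfa and Ddit4 were among those gained. Of them that of Pdk1, which stood highest in the hypoxic lists, alone was also gained in lists of equal number. Those lists keep only the strongest peaks, so this follows from its rank. Shared regions at Hif1a and Pkm and near Ldha ranked higher, while a region in Hk1 was lost and shared regions at Pfkm and Higd1a ranked lower. The strongest gained regions lay mostly inside or between other genes. Most shared regions met neither criterion for a change in rank. Among shared regions, those at promoters were more often ranked lower in hypoxia than higher, a balance that turned with percentiles taken within whole lists, and the promoters ranked lower carried the letters of an ETS factor site more often than the others.

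BV2 is an immortalised line of mouse microglia, the resident macrophages of the brain, so all 4 libraries come from 1 line and their replicates are separate experiments with it, not separate animals. All the cells were grown without the GL261 glioma cells used elsewhere in the series, and per the labels the groups differ in oxygen alone: 21% for normoxia, below 0.1% for 16 h for hypoxia. Per the labels, fixation took place inside the hypoxic chamber (1% formaldehyde, 10 min), cells carrying the leukocyte surface protein CD45 were sorted, and 50000 cells went into each reaction. Each group holds 2 biological replicates. ATAC-seq reads out open chromatin as places where the enzyme Tn5 can insert sequencing adapters. A peak in a bulk sample cannot tell apart more cells with an open site and a wider opening in each cell.

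Cells sense oxygen through prolyl hydroxylases (Egln1 to Egln3), which mark the alpha subunits of the transcription factor HIF for destruction through Vhl while oxygen is present. When oxygen runs low, HIF-1 alpha is stabilised, pairs with Arnt and binds hypoxia response elements, whose core letters are ACGTG or GCGTG, at genes for glycolysis, glucose uptake, vessel growth and mitophagy. Several histone and DNA demethylases use oxygen as a substrate as well. ETS factors, to which the macrophage factor PU.1 and the widely expressed GABP belong, bind around the letters GGAA, and the form CCGGAAGT is frequent at promoters of housekeeping genes.

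The promoters below are examples from 3 sets of regions described in the results, chosen after their values and letters were seen. Each sequence is the 250 bases upstream of a start site, from RefSeq on GRCm38.p6, read 5′ to 3′ on the strand of the gene. The first set shows promoters that ranked lower in hypoxia and hold CCGGAAGT, which is in capitals (or its reverse complement ACTTCCGG). Pyroxd1, coding for an oxidoreductase, lies on the plus strand (chr6:142345447-142345696). Prkacb, the beta catalytic subunit of protein kinase A, lies on the minus strand (chr3:146812947-146813196), as does 2310057M21Rik (chr7:131362727-131362976).
Pyroxd1: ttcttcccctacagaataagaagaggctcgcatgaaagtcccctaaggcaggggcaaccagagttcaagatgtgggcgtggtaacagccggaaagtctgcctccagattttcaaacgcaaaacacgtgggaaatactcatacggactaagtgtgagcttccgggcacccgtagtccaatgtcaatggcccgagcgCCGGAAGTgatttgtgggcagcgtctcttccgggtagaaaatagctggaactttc
Prkacb: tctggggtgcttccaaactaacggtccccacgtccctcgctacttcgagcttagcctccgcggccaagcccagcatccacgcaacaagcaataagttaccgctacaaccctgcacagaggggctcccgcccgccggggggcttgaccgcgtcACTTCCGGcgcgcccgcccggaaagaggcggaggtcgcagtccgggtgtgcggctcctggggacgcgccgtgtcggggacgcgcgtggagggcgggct
2310057M21Rik: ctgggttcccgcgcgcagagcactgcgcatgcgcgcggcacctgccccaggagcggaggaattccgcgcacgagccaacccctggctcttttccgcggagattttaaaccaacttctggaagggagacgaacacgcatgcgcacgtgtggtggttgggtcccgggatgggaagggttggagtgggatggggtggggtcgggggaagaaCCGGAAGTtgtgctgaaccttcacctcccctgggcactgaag

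The second set shows promoters that ranked higher in hypoxia, with the core letters ACGTG or GCGTG, or their reverse complements, in capitals. All 3 promoters of the first set hold such cores too, left in lower case there, so holding a core does not set these sets apart. Isyna1, the enzyme that makes inositol phosphate from glucose 6-phosphate, lies on the plus strand (chr8:70594231-70594480), and so does Ndufv3, a subunit of respiratory complex I (chr17:31519865-31520114).
Isyna1: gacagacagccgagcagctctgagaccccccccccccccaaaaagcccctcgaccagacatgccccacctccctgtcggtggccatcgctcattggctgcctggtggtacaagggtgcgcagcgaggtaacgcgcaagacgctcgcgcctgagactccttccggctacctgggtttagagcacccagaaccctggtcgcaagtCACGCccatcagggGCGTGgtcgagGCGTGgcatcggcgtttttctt
Ndufv3: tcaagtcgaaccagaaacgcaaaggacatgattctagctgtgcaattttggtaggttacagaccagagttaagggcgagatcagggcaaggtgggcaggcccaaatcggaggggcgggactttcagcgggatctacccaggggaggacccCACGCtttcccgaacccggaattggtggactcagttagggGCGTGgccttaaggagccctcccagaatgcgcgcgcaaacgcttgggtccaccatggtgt

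The third set shows promoters of genes on the hypoxia lists whose start site lay in a gained region, marked in the same way. The cores do not set gained promoters apart. ACGTG occurs in 28.1% of gained and 29.4% of shared promoter windows, and GCGTG in 52.1% and 56.6%. The windows at the gained start sites of Vegfa and Gpi1 hold neither core. Pdk1, the kinase that inhibits pyruvate dehydrogenase in the mitochondrion, lies on the plus strand (chr2:71872974-71873223). Egln3, a prolyl hydroxylase that is itself a HIF target, lies on the minus strand (chr12:54203875-54204124), and so does Ddit4, an inhibitor of mTORC1 signalling (chr10:59951771-59952020).
Pdk1: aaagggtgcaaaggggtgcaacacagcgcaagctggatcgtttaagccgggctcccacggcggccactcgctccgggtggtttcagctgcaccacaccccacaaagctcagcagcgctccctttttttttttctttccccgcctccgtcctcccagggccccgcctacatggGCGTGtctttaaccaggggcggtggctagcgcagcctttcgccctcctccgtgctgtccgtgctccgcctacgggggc
Egln3: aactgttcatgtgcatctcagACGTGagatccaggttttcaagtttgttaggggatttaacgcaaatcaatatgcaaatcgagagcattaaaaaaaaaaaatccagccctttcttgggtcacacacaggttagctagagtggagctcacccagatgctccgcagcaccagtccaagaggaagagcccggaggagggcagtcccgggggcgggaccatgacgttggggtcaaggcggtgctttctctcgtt
Ddit4: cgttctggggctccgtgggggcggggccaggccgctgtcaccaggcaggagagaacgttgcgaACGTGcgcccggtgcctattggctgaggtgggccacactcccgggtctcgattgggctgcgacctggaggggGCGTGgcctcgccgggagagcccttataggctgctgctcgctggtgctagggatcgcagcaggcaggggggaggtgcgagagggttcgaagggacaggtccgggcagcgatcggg

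More of the genome was called open in hypoxia. The normoxic lists held 13326 and 9903 peaks, a mean of 11614.5 ± 2420 (SD, n = 2), and the hypoxic lists 24365 and 26333, a mean of 25349 ± 1392 (SD, n = 2). Both hypoxic lists were thus longer than both normoxic ones, by 13734.5 peaks or 2.18-fold, which is larger than the spread between replicates. A two-sided exact permutation test of 2 libraries against 2 gave p = 0.33, the smallest value this design allows. Read totals were not used here. The background coverage solved from each peak's fold and p-value moved with oxygen. It was 0.758 and 1.03 fragments per position in normoxia and 1.45 and 1.41 in hypoxia. This coverage depends on the length given to fragments as well as on their number, so it is not read depth alone. The shortest peaks were 270 and 405 bp in normoxia and 302 and 315 bp in hypoxia. Calls were then repeated on shortened lists. Lists scaled to the lowest of these coverages, that of normoxic replicate 1, gave 6813 gained and 79 lost regions. Lists held to their 9903 best peaks gave 1460 gained and 1035 lost regions. Gains were thus 98.9% of gained and lost regions at equal coverage and 58.5% at equal number, where every extra peak in a list displaces another. Shortening takes peaks out and adds none, so it cannot restore normoxic peaks missed at lower coverage. How much of the gains goes with coverage was not tested.

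**Figure D1:**
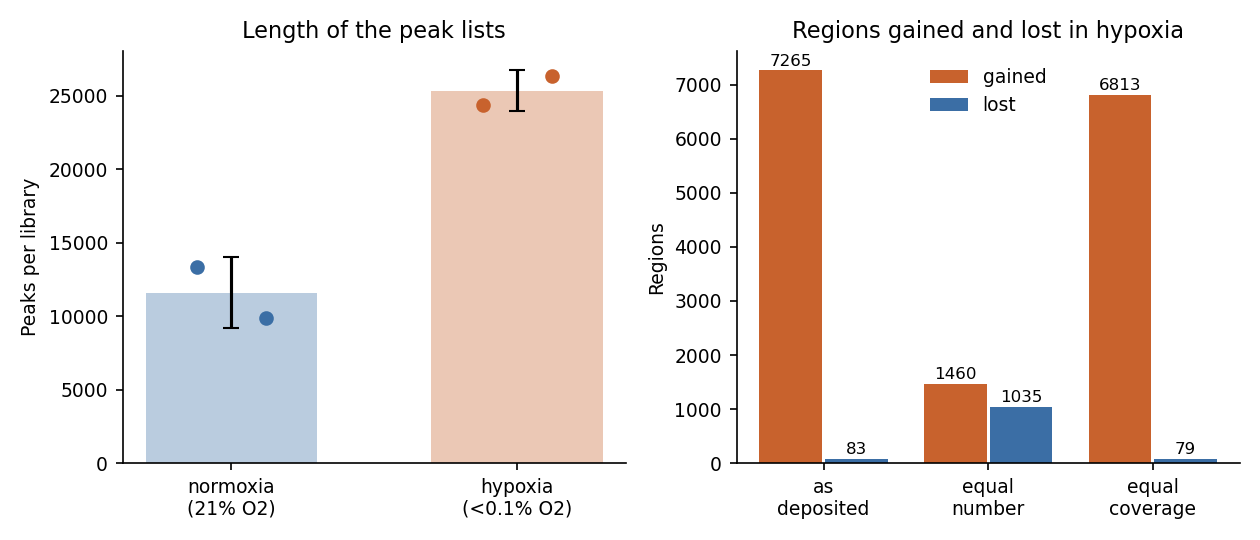
The left panel plots peaks per library (points), with the mean (bar) and SD (line) of 2 libraries per group. The right panel plots the number of regions gained and lost in hypoxia for the lists as deposited, held to equal number and scaled to equal coverage. Gained regions outnumber lost ones in all 3, by the least at equal number (1460 against 1035).

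Gained regions were mainly weak peaks. Within each hypoxic list, peaks were given a percentile by the authors' −log10 p, and each region was placed by the lower of its 2 percentiles. Of the regions called in both hypoxic lists, 37.2% were gained. That share was 70.3% among the weakest regions (percentile 0 to 10), 41.7% from 40 to 50 and 3.13% from 90 to 100. The median gained region stood at percentile 33.7, and 2132 of them (29.3%) stood at 50 or above. A region that a normoxic list lacks is one that did not pass the peak caller's threshold at that list's depth. Of the 7265 gained regions, 6773 were also gained at equal coverage and 1330 at equal number. A gained region high in both hypoxic lists keeps its call in shortened lists by construction, since shortening takes out weak peaks and adds none. Beyond the strict call, 3801 regions had peaks in both hypoxic lists and normoxic replicate 1 only, and 1463 in both hypoxic lists and normoxic replicate 2 only.

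**Figure D2:**
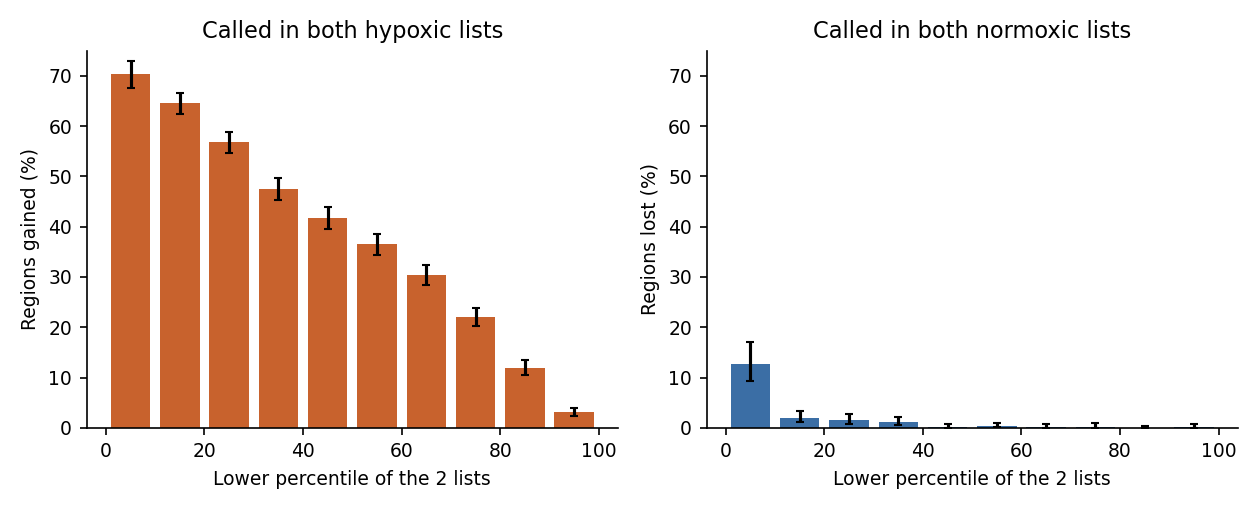
The left panel plots the share of regions gained, among those called in both hypoxic lists, by the lower of their 2 within-list percentiles. The right panel plots the share lost among regions called in both normoxic lists. Lines are 95% exact binomial intervals over regions, which are not replicates. The share gained goes from 70.3% in the weakest bin to 3.13% in the strongest, and the share lost from 12.8% to 0.134%.

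The strongest gained regions lay away from start sites, in or near genes that are not on the hypoxia lists. The first by rank lay inside Unc13a, a gene for synaptic vesicle priming (chr8:71665556-71666014), at percentiles 98.2 and 98.8 of the hypoxic lists. It was followed by a region inside Dcaf6, a substrate receptor of a ubiquitin ligase (chr1:165363273-165363898), at 97.5 and 97.7. The next region, nearest to the ferrireductase gene Steap3 at 34226 bp (chr1:120305307-120306243), stood at 97.4 and 98.7. The next regions were nearest to Corin, the protease that activates atrial natriuretic peptide (49273 bp away), inside Pxk, nearest to Fam241a (230354 bp away), and inside the glycosyltransferase-like gene Gtdc1. The last 3 of the 10 lay inside Kcnab2, a subunit of voltage-gated potassium channels, and nearest to the depalmitoylase gene Abhd17c (6284 bp away) and to Xkr9 (50188 bp away). All 10 stood at percentile 95.4 or above in both hypoxic lists, which is what chose them. In co-culture, 7 of the 10 had a peak in both hypoxic lists, while 6 had one in both normoxic lists and 9 in at least 1 of them. The region inside Kcnab2 (chr4:152410935-152411562) was the exception, with peaks in both hypoxic and in neither normoxic list of co-culture.

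Gained regions were spread over many genes. Within 10 kb, 3801 protein-coding genes had 1 gained region, 1253 had 2 or more and 62 had 5 or more. Macrod2, an ADP-ribose hydrolase gene of 1998 kb, had 10 gained regions among 28 regions in all. Fndc3b, of 295 kb, and Prkag2, the gamma subunit of the energy sensor AMPK, of 244 kb, each had 9, among 14 and 12 regions. Gse1 and Srgap2 had 8 each, Apbb2, Arhgap26, Arhgef3 and Dnm3 had 7 each, and Arhgap31 had 6. These genes are long, 115 kb or more, against a median of 22.9 kb for protein-coding genes with a region. None of the 10 genes had a region that was lost, or a shared one ranked higher or lower in hypoxia. Gained shares per chromosome ran from 17.4% of regions on X to 26.6% on chromosome 10.

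Lost regions were few. Of the regions called in both normoxic lists, 1.14% were lost, and the median lost region stood at normoxic percentile 11.3. The strongest lay 61986 bp from Ccnh, the cyclin of the CDK-activating kinase (chr13:85126734-85127391), at percentiles 94.6 and 99.5 of the normoxic lists, and 1 list of each oxygen level had a peak there in co-culture. The next lay near Tmem100 (chr11:90029214-90029830), at 82.5 and 72.7, and 76234 bp from Maf, a transcription factor of macrophages (chr8:115626265-115627019), at 70.7 and 72.5. For Tmem100 and Maf, both normoxic and no hypoxic list of co-culture had a peak, which is the direction seen in monoculture. Another lay inside the kinase gene Cdk13, and there all 4 co-culture lists held a peak.

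Gained regions were more distal than the rest. Distances were taken to RefSeq start sites, and regions on chromosome 18 have none here. Of gained regions 18.6% lay within 1 kb of a start site, with a median distance of 16597.5 bp, against 26.5% of lost, 46.3% of shared and 25.6% of all regions. Gained regions at percentile 50 or above in both lists were still more distal (13.4%). The peak lists showed the same in each library. In normoxia, 36.9% and 39.3% of peaks lay within 1 kb of a start site, a mean of 38.1% ± 1.71 (SD, n = 2), and in hypoxia 28.6% and 26.7%, a mean of 27.7% ± 1.34 (SD, n = 2). The groups did not overlap and differed by −10.4 percentage points, with p = 0.33 in the exact permutation test. With all lists held to 9903 peaks, the difference was −6.72 points.

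In shared regions, which every list holds, the order of peak strength changed. The best −log10 p of each shared region was ranked among the 7018 shared regions in each library, so that all 4 rankings have the same length. A region was called higher when both hypoxic ranks exceeded both normoxic ones by 10 percentile points or more, and lower in the reverse case. There were 732 regions ranked higher (10.4% of shared regions) and 772 ranked lower (11.0%). Ranks only order the regions within a library, so upward and downward moves balance and carry no sign for accessibility as a whole. With percentiles taken within each whole list instead, where the longer hypoxic lists add weak peaks at the bottom, 1659 shared regions were higher (23.6%) and 163 lower (2.32%). Below, ranked higher or lower refers to ranks among shared regions.

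**Figure D3:**
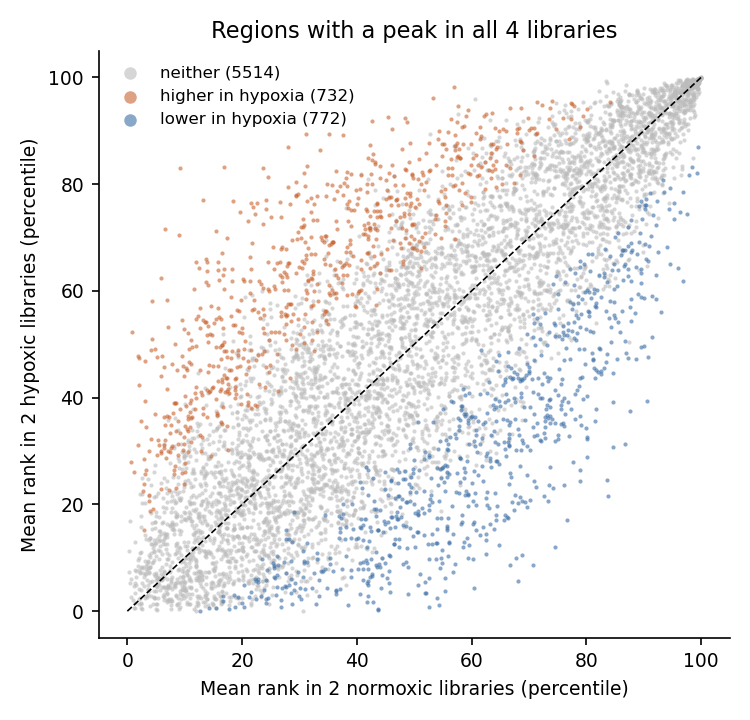
Each point is 1 of the 7018 shared regions, plotted by its mean rank in the 2 normoxic (x axis) and the 2 hypoxic (y axis) libraries, in percentiles among shared regions. Orange points are the 732 regions higher in hypoxia, blue points the 772 lower and grey points the rest, and the dashed line marks equal rank. The colours show the call itself and the strongest regions at the top right are mostly grey.

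The largest upward move was at a region 5620 bp from Mfsd1, a lysosomal membrane protein gene (chr3:67576221-67577148), with ranks of 7.14 and 11.2 in normoxia and 81.1 and 84.9 in hypoxia. A region inside Irf2, a factor of the interferon regulatory family (chr8:46842384-46843505), had ranks of 15.2 and 18.4 in normoxia and 83.1 and 83.2 in hypoxia. Both regions passed from the bottom of the shared regions to near the top. A region nearest to Gtdc1, at 37603 bp (chr2:44526259-44526809), had 7.63 and 10.2 against 76.2 and 64.9. Regions inside Pde4b, a cyclic AMP phosphodiesterase, and Ltbp2, a binding protein of latent TGF-beta, came next, and none of these 5 lay within 5 kb of a start site.

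The largest downward moves were at promoters. The Pyroxd1 start site (chr6:142345421-142346551) had ranks of 78.9 and 88.9 in normoxia and 20.9 and 22.3 in hypoxia. The start site of Prpf6, a spliceosome component (chr2:181600865-181601566), had 71.9 and 77.3 against 16.6 and 7.57. A region 19962 bp from Akain1, which lies 393 bp from the nearest annotated start site, followed, and then the start sites of Exo1, a DNA repair exonuclease, and Etfbkmt, a mitochondrial protein methyltransferase. Of the 2 further promoters printed above, Prkacb had ranks of 64.9 and 64.6 in normoxia and 7.47 and 17.2 in hypoxia. 2310057M21Rik had 53.1 and 44.6 against 1.55 and 4.90. In the opposite direction, Isyna1 had ranks of 13.1 and 17.9 in normoxia and 66.7 and 76.0 in hypoxia, and Ndufv3 had 2.96 and 1.2 against 49.7 and 45.1.

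Promoter and distal regions parted along the same line. Of regions ranked higher, 32.8% lay within 1 kb of a start site, and of regions ranked lower 56.9%, against 46.3% of all shared regions. Among the 3149 shared regions at start sites, 7.46% were higher and 13.6% lower, and among the 2780 with none within 10 kb 13.1% and 9.42%. With percentiles within whole lists, the balance at start sites turned, to 19% higher and 3.21% lower, against 27.5% and 1.76% of distal regions, so promoters had a smaller share of upward and a larger share of downward calls than distal regions under either ranking. The median rank of promoter regions was 56.2 in both normoxic libraries and 52.8 and 50.4 in the hypoxic ones. Distal regions had median ranks of 46.5 and 47.1 in normoxia and 49.1 and 50.8 in hypoxia. Promoter regions thus stood above distal ones by 9.69 and 9.19 points in normoxia, while the difference was 3.72 and −0.413 points in hypoxia.

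Gained regions near genes of the hypoxia programme were counted against those near all genes. A protein-coding gene was counted where a region lay in it or within 10 kb. Over all protein-coding genes, 23.4% had a gained region, and 37.0% of those with any region in reach. For lost regions these shares were 0.314% and 0.498%, for regions ranked higher 3.5% and 5.55%, and for regions ranked lower 4.39% and 6.95%. The 12 pathway lists hold 178 genes, of which 161 had any region in reach and 66 a gained one, or 37.1% of all and 41.0% of those with a region. They include inflammatory, interferon and housekeeping genes, and the 5 lists of the hypoxia programme described first had a gained region at 26.7% to 50.0% of their genes with a region. Within 1 kb of a gene end, 16.3% of the 178 genes had a gained region, against 7.39% of all protein-coding genes. At equal coverage 60 of the 178 had one (33.7%, against 22.0% of all protein-coding genes) and at equal number 13 (7.30%, against 5.51%). The shares over all protein-coding genes include many with no region within 10 kb, as 13648 of 21631 had one, against 161 of 178 list genes. Of the rank calls near genes of all lists, the 11 higher ones were also higher with percentiles within whole lists, and of the 13 lower ones only those at Higd1a, Kdm5a and Pfkm were also lower, the other 10 meeting neither criterion.

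In the HIF pathway, 4 of 12 genes had a gained region, against 3 at equal coverage, where Siah2 lost the call, and 1 at equal number. The start site of Egln3 (chr12:54203652-54204184) stood at percentiles 65.2 and 61.9 of the hypoxic lists, and a second gained region lay inside the gene at 69.2 and 56.8. In co-culture the start site had a peak in both normoxic lists and in 1 hypoxic list, which is not the monoculture direction. The other 3 were Arnt2, the paralogue of the HIF partner Arnt, Hif1an, the asparaginyl hydroxylase that blocks HIF's coactivators, and Siah2, a ubiquitin ligase for the prolyl hydroxylases. The start site of Hif1a, the oxygen-regulated subunit itself, was open in all 4 libraries and ranked higher in hypoxia, at 40.0 and 37.6 against 18.8 and 20.9. That of Hif1an ranked lower, at 16.0 and 40.4 against 62.8 and 63.6, so the hypoxic replicates lay far apart there. No region near the list's genes was lost.

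Of 16 glycolytic enzyme genes, 4 had a gained region (Aldoc, Gapdh, Gpi1 and Pfkp) and 1 a lost one (Hk1, the first enzyme of the pathway, inside the gene). In co-culture the Hk1 region had a peak in all 4 lists. Pkm, the pyruvate kinase gene, had its start site ranked higher in hypoxia, at 60.9 and 62.7 against 24.8 and 11.8. A region 2506 bp from Ldha, which makes lactate from pyruvate, had 48.9 and 61.1 against 10.2 and 21.8. Regions at the phosphofructokinase genes Pfkm and Pfkp ranked lower, that at Pfkm (357 bp from a start site) with 0.185 and 5.64 in hypoxia against 45.6 and 38.4 in normoxia. At equal coverage the Pfkm region no longer had a peak in all 4 lists.

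Of 9 genes for glucose and lactate transport and for metabolic switching, 4 had a gained region. The start site of Pdk1 (chr2:71872752-71873584) was the strongest, at percentiles 82.3 and 83.9. It had a peak in all 4 co-culture lists, so in co-culture it was open at both oxygen levels. A region 2661 bp from Slc2a1, the glucose transporter GLUT1, stood at 73.8 and 48.1. In co-culture it had a peak in both hypoxic and in neither normoxic list. Slc16a3, the lactate exporter MCT4, and Pfkfb3, which raises the activator of phosphofructokinase, had gained regions inside the gene, at 50.8 and 15.6 and at 67.9 and 55.3.

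Of 21 secreted and stress-related HIF targets, 8 had a gained region, and none had a lost one or a shared one ranked higher or lower. Start sites were gained at Vegfa, the main growth factor for vessels (percentiles 29.5 and 38.9), Ddit4 (38.8 and 39.6), P4ha1, a collagen prolyl hydroxylase (13.6 and 18.6), and Plin2, a coat protein of lipid droplets (48.2 and 36.7). In co-culture the start sites of Ddit4 and P4ha1 had a peak in all 4 lists, that of Plin2 in both normoxic and 1 hypoxic list, and that of Vegfa in 1 normoxic and both hypoxic lists, so none of the 4 was gained there. All 4 stood below the middle of both hypoxic lists, and none was gained at equal number. The other 4 genes were Ero1a, Hmox1, Lox and P4ha2. Of 8 mitophagy and autophagy genes, 4 had a gained region, Bnip3 and Bnip3l (HIF-induced mitophagy receptors), Map1lc3b and Ulk1. Higd1a, a mitochondrial protein induced in hypoxia, had its start site ranked lower, at 18.5 and 17.7 against 49.4 and 79.3.

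Of 17 histone and DNA demethylase genes, 5 had a gained region and 3 a region ranked lower. Gained regions lay at the start sites of Tet2, a DNA demethylase (61.6 and 61.1), and Kdm7a, and near Kdm5a, Kdm2a and Tet1. The start site of Kdm6a, the histone H3K27 demethylase on the X chromosome, ranked lower, at 61.6 and 64.3 against 90.4 and 93.9. Jmjd6 and Kdm5a ranked lower as well, Jmjd6 with 7.13 and 12.8 against 29.7 and 41.0, and Kdm5a with 4.62 and 0.0997 against 17.7 and 27.3. At equal coverage the Kdm5a region no longer had a peak in all 4 lists. No region of this list ranked higher. Of this list's genes with a region within 10 kb, 31.25% had a gained one, against 37.0% of all such protein-coding genes.

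Of 15 genes of the unfolded protein and integrated stress responses, 5 had a gained region (Atf3, Atf6, Eif2ak3, Ern1 and Herpud1), against 3 at equal coverage, where Atf3 and Herpud1 lost the call, and 0 at equal number. The start sites of Ddit3, the stress factor CHOP, and of Trib3, a pseudokinase that CHOP induces, ranked higher. Ddit3 had ranks of 41.9 and 40.3 in hypoxia against 11.1 and 22.9, and Trib3 had 81.9 and 84.3 against 52.4 and 60.8. Among 15 AP-1 and related bZIP factor genes, 6 had a gained region, against 5 at equal coverage, where Batf lost the call, and 2 at equal number. The strongest lay inside Bach1, a haem-regulated repressor (81.2 and 83.5), and inside Jdp2 (74.8 and 68.6), with weaker ones near Fos, Fosb, Junb and Batf. The Bach1 region had no peak in any co-culture list. Of genes with a region within 10 kb, 33.3% on the stress list and 46.2% on the AP-1 list had a gained one. Over all such protein-coding genes the share was 37.0%.

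Of 19 inflammatory and NF-kappaB genes, 8 had a gained region, against 7 at equal coverage, where Nfkb1 lost the call, and 1 at equal number. Nfkbia, the inhibitor that NF-kappaB induces against itself, had a gained region at its start site (60.0 and 61.1) and a shared one within 10 kb that ranked higher, at 80.0 and 84.2 against 28.9 and 32.8. Il10 and Il1b, coding for an anti-inflammatory and an inflammatory cytokine, had gained regions outside the gene at percentiles 63.0 and 67.3 and at 54.4 and 51.0. Of 21 interferon and antigen presentation genes, 7 had a gained region, such as the class I heavy chain gene H2-K1 at its start site (39.3 and 41.8). A gained region at Ifit3, at 4.99 and 8.42, lost the call at equal coverage. The start site of B2m, the light chain of class I molecules, ranked lower, at 15.2 and 28.3 against 67.7 and 51.1. Regions near Isg15 and in Nlrc5 ranked higher. Of 13 genes marking macrophages in hypoxic tumours, 7 had a gained region, the strongest near Lgals3 (84.6 and 79.7) and in the scavenger receptor gene Cd36 (84.5 and 70.9). In co-culture the Lgals3 region had a peak at both oxygen levels in every list, and the Cd36 region in both hypoxic lists alone. Spp1, coding for osteopontin, had its start site ranked lower, at 43.3 and 29.8 against 53.9 and 66.1, while its percentiles within whole lists overlapped (74.0 and 65.2 against 70.4 and 75.5). Cxcr4, a chemokine receptor gene that HIF induces, had its start site gained at 35.3 and 27.9. The inflammatory, interferon and tumour macrophage lists hold 17, 16 and 12 genes with a region within 10 kb. Of these, 47.1%, 43.8% and 58.3% had a gained one, against 37.0% of all such protein-coding genes.

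For comparison, 4 of 12 housekeeping genes had a gained region (such as Gusb, Rplp0 and Tbp), 1 a lost one (Eef1a1), 2 a region ranked higher and 1 a region ranked lower. Markers of microglia and macrophages were checked against the label. Of 25, 13 and 12 had a peak within 10 kb in the normoxic lists and 17 in each hypoxic list, and 10 had a gained region. Those included the start sites of Irf8, Runx1, Cebpb and Trem2 and 3 regions inside Ptprc, the CD45 gene used in the sort. Regions at the microglial genes Mef2c and P2ry12 ranked lower, P2ry12 (purinergic receptor) with 22.8 and 50.8 against 75.9 and 70.2. Within whole lists the P2ry12 region stood at 56.3 and 80.3 in hypoxia against 85.8 and 78.6, so the groups overlapped. The Mef2c regions were not called lower within whole lists either. Of 14 glioma and glial markers, 1 had a peak in each normoxic list and 2 and 4 in the hypoxic lists, and none had a region shared by all 4. Gained regions were also counted at 3 of 7 neuronal, 2 of 6 endothelial, 2 of 7 lymphocyte and 0 of 5 epithelial marker genes. Over all protein-coding genes 23.4% had a gained region, and 37.0% of those with any region within 10 kb. At equal coverage the marker counts were the same, 10 for microglia and macrophages, 2 for glial, 3 for neuronal, 2 for endothelial and 2 for lymphocyte markers. At equal number they were 2, 1, 0, 1 and 0. The shares over all protein-coding genes were 22.0% at equal coverage and 5.51% at equal number.

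The 4 co-culture libraries, which did not enter the calls, were examined at the same regions. Gained regions had a peak in 50.3% and 46.9% of cases in the normoxic co-culture lists and in 80.0% and 56.8% in the hypoxic ones. Over all merged regions the shares were 57.5% and 57.8%, and 72.2% and 57.5%, so gained regions were below them in both normoxic lists, above in hypoxic replicate 1 and about equal in hypoxic replicate 2. Of them, 853 (11.7%) had a peak in both hypoxic and neither normoxic co-culture list, against 111 (1.53%) with the reverse. Over all merged regions these shares were 5.46% and 1.72%. A larger number of gained regions, 2021 (27.8%), had a peak in all the co-culture lists. Of the 83 lost regions, 8 (9.64%) had peaks in both normoxic and neither hypoxic co-culture list and 0 the reverse. Hypoxic replicate 2 of co-culture has fewer peaks (21625) than replicate 1 (29647), and the presence of gained regions was lower in it.

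The moves in rank were seen in co-culture as well. Their size cannot be compared with that in monoculture, where a large move is what chose the regions. In the 6380 regions with a peak in all 8 lists, ranks were taken anew among these regions. Regions higher in hypoxic monoculture had median ranks of 44.3 and 35.1 in normoxic co-culture and of 59.0 and 51.8 in hypoxic co-culture. By the same 10-point criterion 32.2% of these 662 regions were higher in hypoxic co-culture and 2.11% lower, against 12.6% and 12.1% of all 6380. The 703 regions lower in hypoxic monoculture had median ranks of 48.5 and 56.5 in normoxic co-culture and of 32.6 and 38.3 in hypoxic co-culture, and 28.3% of them were lower by 10 points and 2.42% higher. In both sets the hypoxic and normoxic co-culture medians did not overlap, and each moved in the direction seen in monoculture.

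**Figure D4:**
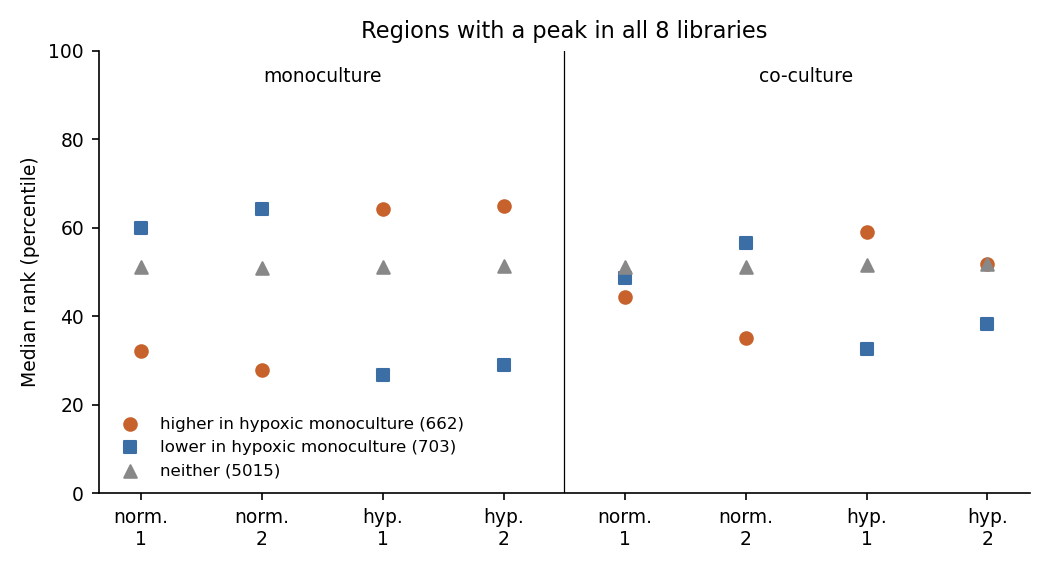
Points are median ranks, in percentiles among the 6380 regions with a peak in all 8 libraries, for each library (x axis: normoxia and hypoxia, replicates 1 and 2, in monoculture and co-culture). The 4 monoculture medians follow from the call; in the 4 co-culture libraries, which were not used, regions higher in hypoxic monoculture go from 44.3 and 35.1 to 59.0 and 51.8, and those lower from 48.5 and 56.5 to 32.6 and 38.3.

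Letters of factor sites were counted on both strands in the 300 bases around each start site (250 before, 50 after), for windows that overlap a region, with 10 sets of letters searched. A match is a description of the sequence and not a binding site. The letters CCGGAAGT, as in the Pyroxd1 and Prkacb promoters printed above, occur in 3.91% of all 32619 promoter windows and in 9.38% of the 4170 windows in shared regions. They occurred in 105 of 570 windows in regions ranked lower (18.4%) and in 10 of 300 in regions ranked higher (3.33%). When shared windows were ordered by the change in mean rank and divided into 5 groups of 834, the share went from 16.9% in the most lowered group through 11.4%, 7.31% and 6.71% to 4.56% in the most raised. GC content was similar in the outer groups (61.0% and 62.3%), as was the mean number of CpG per window (23.2 and 22.6). The letters GGGCGGG of SP and KLF factors, in 25.7% of all windows, went the other way, from 43.3% to 58.9%.

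The difference lay in the hypoxic libraries. In the regions with a peak in all 8 lists, the median rank of regions whose window holds CCGGAAGT differed from that of the other promoter regions by −2.51 and 0.302 points in the normoxic monoculture libraries and by −17.4 and −12.2 points in the hypoxic ones. In co-culture, whose libraries played no part in the calls, it differed by −5.24 and −1.90 points in normoxia and by −14.5 and −8.75 points in hypoxia. All 4 hypoxic differences were below all 4 normoxic ones, but the monoculture ranks also made the calls, so only the co-culture values are separate.

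The core letters of the hypoxia response element did not single out the gained promoters, and the window at the gained Vegfa start site holds neither core. ACGTG occurs in 19.8% of all promoter windows, 28.1% of the 1366 in gained regions and 29.4% of those in shared regions. GCGTG occurs in 32.6% of all windows, 52.1% of those in gained and 56.6% of those in shared regions. Among shared regions, GCGTG went from 52.6% in the most lowered group to 61.4% in the most raised, as in the Isyna1 and Ndufv3 promoters, and ACGTG from 30.5% to 30.3%. These windows cover promoters, while most gained regions lie elsewhere. The AP-1 letters TGANTCA were found in 6.81% of gained and 5.01% of shared windows, against 7.85% of all, and the PU.1 letters GAGGAAGT in 3.59%, 3.81% and 3.22%.

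**Figure D5:**
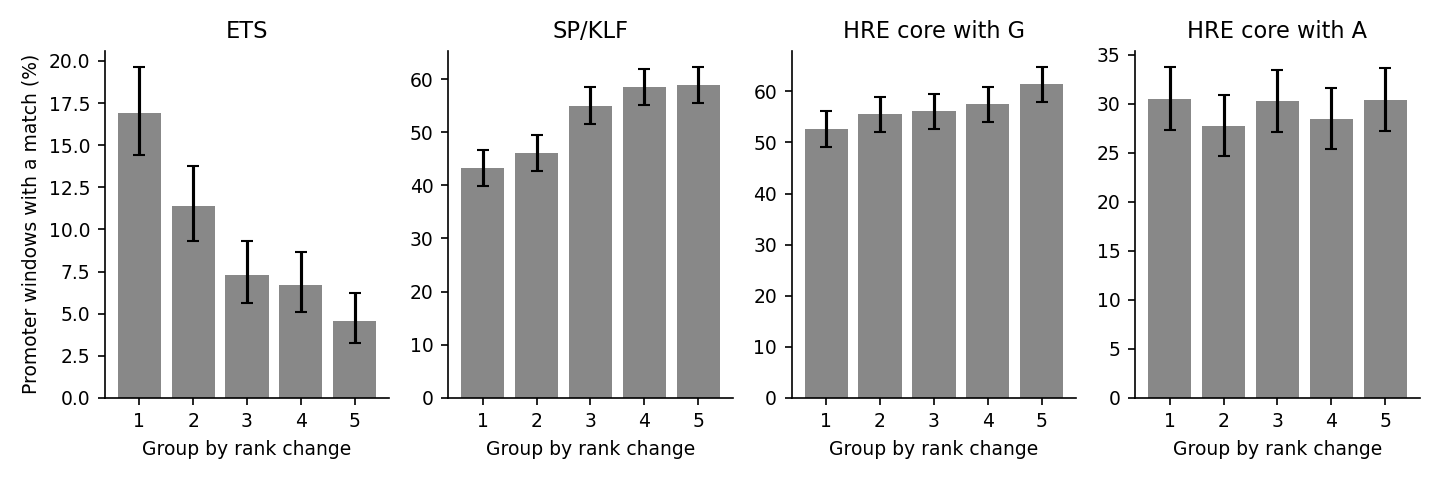
Bars are the share of promoter windows in shared regions that hold the letters of a factor site, by group of the change in mean rank from normoxia to hypoxia (1, most lowered; 5, most raised; 834 windows each). Lines are 95% exact binomial intervals over windows, which are not replicates. From group 1 to group 5 the ETS letters go from 16.9% to 4.56%, the SP/KLF letters from 43.3% to 58.9%, the core of the hypoxia response element with G from 52.6% to 61.4%, and that with A from 30.5% to 30.3%.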

How the data were processed

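Peaks were called for each library separately. Per the submitters' processing notes, the tools were Trimmomatic 0.36, HISAT2 2.1.0, Picard, SAMtools, deepTools and MACS2 2.1.1.2, with build mm10; their settings, and any Tn5 shift, are not given in the sources used here. Each deposited list gives a position, a score (10 times the −log10 q without its decimals), a −log10 q, a −log10 p, a fold (the summit over that library's background, a ratio) and the offset of the summit. These values are the authors'; they served to order and filter the peaks of a list and to estimate each library's coverage. All lists reach down to a −log10 q just above 2.

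Summit fragments and background were solved from the deposited fold and −log10 p, taking the fold as (n + 1)/(b + 1) and the p-value from a Poisson distribution. At least 99.8% of peaks in each list were recovered to within 0.001 in −log10 p. The most frequent background value is the coverage given. Equal-number lists keep the 9903 peaks with the highest −log10 p. Equal-coverage lists scale n and b to the coverage of 0.758 and keep peaks with a −log10 p of 4.19 or more. Counts over regions have no test, because regions are not replicates. Single values per library were compared with two-sided exact permutation tests. Intervals cover counting error only.

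Gene positions, start sites and promoter sequences are from RefSeq on GRCm38.p6, the assembly behind mm10. Start sites were given for 17274 of 21631 protein-coding genes (79.9%) and for none on chromosome 18, whose regions are left out of distances and motif counts. Named regions are the 10 gained and 5 lost with the highest minimum percentile and the 5 shared with the largest gap each way, and named genes are the 10 with most gained regions and, in each list, those with a call; some of these are not reported here. The promoters printed are examples chosen after their values and letters were seen. The comparison, the gene lists and the letters searched were chosen with earlier results of these data known. Alternatives covered the list length, the −log10 q threshold (5), wide peaks (over 10 kb), the overlap rule, the ranking, the gap, the distances and each library left out in turn. Calling and ranking were tested on simulated lists. The work was done in Python 3.11.15 with pandas 2.3.3, numpy 2.4.6, matplotlib 3.10.9 and scipy 1.17.1.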

Additional observations from a re-analysis of the deposited data

How the results depend on the processing

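Gained and lost counts depended on the length of the lists: 1460 and 1035 at equal number, and 43 lost at a −log10 q of 5 or more. With 1 library left out, gained regions numbered 8753 to 12613, lost 143 to 1013, and shared regions ranked higher 1119 to 2191 and lower 1152 to 2207, since fewer lists must then concur. Gained regions were most without hypoxic replicate 1 (12613) and numbered 11071 without normoxic replicate 1 and 10939 without hypoxic replicate 2. Lost regions numbered 647 and 1013 without normoxic replicate 1 or 2, and 143 and 212 without hypoxic replicate 1 or 2. Higher and lower regions numbered 472 and 489 when peaks had to cover 50% of the region, 1659 and 163 with percentiles within whole lists, and 307 and 319 with a gap of 20 points. List genes with a gained region numbered 29 within 1 kb of a gene end, 113 within 50 kb and 13 at equal number, where the shares of all protein-coding genes were 7.39%, 42.6% and 5.51%. At equal number, 14.5% of gained regions had a peak in both hypoxic and neither normoxic co-culture list, and 2.53% the reverse. CCGGAAGT occurred in 29.6% of promoter windows ranked lower with percentiles within whole lists (125 windows), and in at least 15.4% with 1 library left out. Shared regions at start sites numbered 597 higher and 101 lower with percentiles within whole lists, against 235 and 427. This, the alternatives for CCGGAAGT, and distance to either end of a gene (−10.3 points in the share of peaks), were chosen after seeing the data.

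The difference in peaks per list ran from 12023 to 15446 with 1 library left out, and that in the share near start sites from −11.6 to −9.16 points. Equal-number lists fix the length, so they give no value for peaks per list. With the replicate block, pairing the libraries by replicate number, the mean difference in peaks stayed at 13734.5, with 11039 and 16430 in the 2 pairs, and the share near start sites differed by −8.21 and −12.5 points (exact permutation p = 0.5, the smallest that 2 pairs allow). The numbers are not known to pair the samples. With 2 libraries per group no exact permutation test can pass 0.05, and normoxic coverage below that of hypoxia limits what normoxic lists can show.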

Other observations

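Among shared regions at start sites, gene families chosen after their values were seen differed in how often they ranked lower in hypoxia, against 13.6% lower and 7.46% higher over all 3149. Of 124 regions at zinc finger protein genes named Zfp, which code mostly for DNA-binding repressors, 29 (23.4%) ranked lower and 3 higher. Of 28 at respiratory chain and ATP synthase genes, 10 ranked lower, among them those of Atp5pb, Cox7c and Ndufa4, and 4 higher (Ndufa11, Ndufb11, Ndufs8 and Ndufv3). Of 12 at proteasome subunit genes, 4 ranked lower (Psma2, Psma7, Psmd11 and Psmd13) and 0 higher. Of 26 at histone genes, 6 ranked lower and 1 higher. Cytosolic ribosomal protein genes were even, with 2 of 14 each way, and mitochondrial ones had 4 of 24 lower and 1 higher. These counts have no test, and families share promoter features.

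Small RNA genes gave further values. Of 33 shared regions overlapping small nuclear RNA genes, 9 ranked lower and 1 higher. Of 54 shared regions at transfer RNA genes, 12 ranked lower and 6 higher, and 19 of all 121 regions at such genes were gained and 2 lost. Over all regions 23.2% were gained, and over all shared regions 11.0% ranked lower and 10.4% higher. These genes are repeated in the genome, and how reads with several matches were treated is not given in the sources used here.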
